A study of Rattus norvegicus with 4 samples.

Results

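Solute carriers are membrane proteins that move ions, nutrients, transmitters and metabolites across the plasma membrane and the membranes of organelles. In the array table of rat vestibular ganglion, probes were taken whose platform annotation gives a single symbol of an Slc family with a number, or of the organic anion transporter family Slco. By the same rule Slc17a6, Slc17a7, Slc17a8, Slc4a4, Slc47a1 and Slc26a5 were left out. The rule read 347 probes of 253 genes, out of 399 such probes and 279 such genes on the platform. The same reading gave 11039 named genes in all, and the table holds 35126 probes. The 52 solute carrier probes not read, which include every probe of 26 genes, lie where the pairing of names with values could not be settled. The members were picked by name and table position; the 5-row move of the late names, described next, leans on measured values.

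Neurons of the ganglion were collected by laser capture microdissection under calretinin immunofluorescence. Per the design text of the series they were pooled into calyceal afferents, which hold the calcium-binding protein calretinin, and dimorphic and bouton afferents, which do not. Total RNA was labelled with Cy5 and hybridised to 1-colour arrays, 2 arrays titled calretinin positive and 2 titled calretinin negative. The free-text description of each sample, negative ones included, speaks of positive cells, so the groups follow the titles. They are called the libraries labelled positive and those labelled negative. The labels give no strain, genotype, treatment or age, and no such difference between the groups. The source of the 2 arrays of a group (animals, pools, or a shared extract) is not stated, so p-values measure no more than array-to-array spread, possibly of technical origin. The smallest p that a permutation of these arrays can reach is 0.333, so all tests are those of a limma fit over all probes.

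Deposited values are linear intensities with an array median between 0.990 and 0.992. Within both groups the 2 arrays correlated at r = 0.995 across tested probes. A level below 0.457, the 40th percentile of mean intensity, is called below the limit, and a member with a group below it is given by its levels with no fold. Names of 167 of the probes lie in the early part of the table and were read at their own row. Names of the other 180 lie in the late part and were read 5 table rows further on. Between late probes of 1 gene, the log2 changes correlated at r = 0.31 after that move (600 pairs) and at r = -0.04 without it (439 pairs); early probes at their own row had r = 0.23 (664 pairs). These pairs share arrays and are not independent. Each late member with values below is marked as such, because its identity rests on the move.

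The transcript of calretinin itself, Calb2 (late part), had 290.8 and 328 in the libraries labelled positive and 138.5 and 129 in those labelled negative. It was used to choose the cells and checks the labels. Of the neuronal markers, Uchl1 had 202 and 190.5 against 165 and 169, and Nefm 102.5 and 101 against 68.9 and 67.7, while Prph went the other way with 54.2 and 55.1 against 109 and 112. Of 5 tested neuronal markers 3 were higher and 1 lower, Gap43 did not pass, and the probe of Snap25 was below the limit on all 4 arrays. Markers of several other cell types moved with the groups. Those of Schwann and satellite glia went both ways (2 lower, 1 higher, 2 not passing), with sums of 265 and 250 against 288 and 304. Blood and immune markers also went both ways (4 lower, 2 higher). The summed level of 8 oligodendrocyte and central myelin markers was 26.9 and 29.9 in the libraries labelled positive and 163 and 169 in those labelled negative, with 5 of 6 tested genes lower and the probes of Mag and Ermn below the limit in both groups. The 6 astrocyte markers summed to 147 and 162 against 324 and 309 (4 lower, 1 higher, 1 not passing), and 9 endothelial and mural markers to 28.0 and 28.5 against 80.5 and 84.6, with 6 of 7 tested lower and Kdr and Acta2 below the limit in both. The 11 meningeal and mesothelial markers summed to 589 and 563 against 194 and 197, with 8 of 10 tested higher, 1 lower, and Igf2 below the limit in both. Krt8 and Msln, called higher, were below the limit in the libraries labelled negative. Of the higher ones only Ogn and Upk1b were of the early part. Beside all these lists, 45.6% of all genes by their brightest probe were higher and 21.4% lower. The sums of the lists follow their brightest probes. Most of the astrocyte sum was Aldoc (late), with 126.7 and 141.2 against 214.1 and 193.0. The brightest meningeal marker was Slc47a1 (late), a solute carrier left out of the members, with 259.6 and 226.6 against 57.91 and 60.78. In such pooled cells, fewer cells of a type and less RNA per cell cannot be told apart. What part these other cells have in any transporter difference below was not tested.

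As background, the chloride cotransporters set the chloride gradient that decides whether GABA and glycine excite or inhibit a neuron, and transmitter carriers of the plasma membrane end a signal by taking the transmitter into glia or nerve endings. Sensory ganglion neurons are wrapped by satellite glia and Schwann cells, and depend on glucose and lactate carriers of the vessel wall and the surrounding glia. Endothelial cells and the meninges carry their own sets of solute carriers, which move amino acids, organic anions and vitamins between blood, cerebrospinal fluid and nervous tissue.

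Of the 253 genes, each represented by its brightest probe, 182 were tested and 71 were not. Among the untested, 57 were below the limit in both groups, 8 only in the libraries labelled negative and 6 only in those labelled positive. An adjusted p under 0.05 (limma, Benjamini-Hochberg over 21069 probes) was reached by 120 of the 182, or 65.9%, with 71 members higher in the libraries labelled positive and 49 lower. The same share was 64.6% over all tested probes (40.9% higher, 23.8% lower) and 67.1% over 8173 genes by their brightest probe (45.6% higher, 21.4% lower), so the number of solute carriers called was near the background. The groups did not overlap for 151 members, against 81.7% of all tested probes. At least 2-fold differences were called for 17 members higher and 18 lower, against 8.29% and 7.07% of all tested probes and 7.28% and 6.0% of all genes by their brightest probe (9.34% and 9.89% of the members). The median log2 change over tested members was 0.09, with a range of -4.67 to 2.50, and 0.11 over all tested probes. Quantile normalization gave 61 higher and 54 lower members (33.2% and 29.0% of all probes) and cyclic loess 55 and 56 (31.9% and 32.5%). The median of all probes went to 0.01 and -0.01, so the sign of a small change rests on the scaling.

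**Figure D1:**
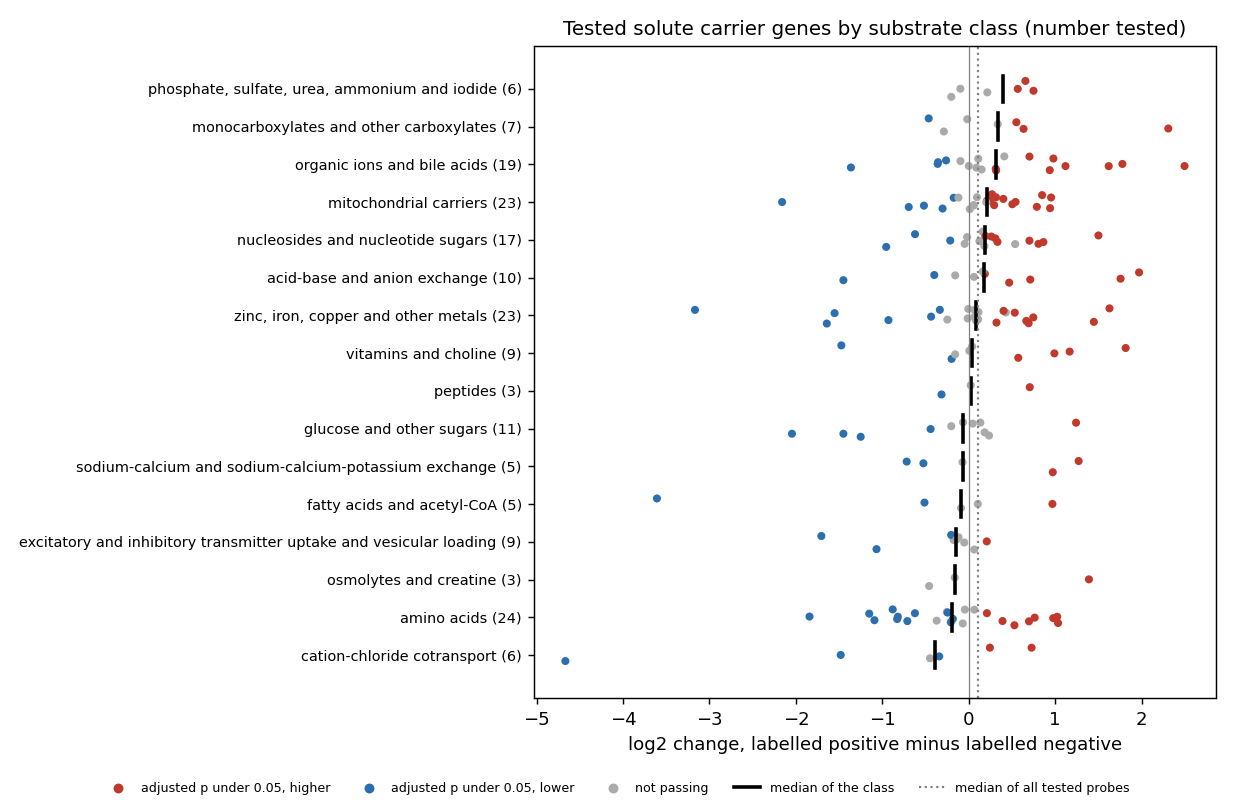
Log2 change (labelled positive minus labelled negative) of every tested solute carrier gene, 1 point per gene, by substrate class with the number tested in brackets; black bars are class medians and the dotted line the median of all tested probes, 0.11. The points reach from -4.67 for Slc12a5 among the cation-chloride cotransporters to 2.50 for Slco4a1 among the organic ion carriers, and most classes hold genes on both sides of 0.

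Of the genes with wide differences, 4 promoters are printed to show the start sites of members on either side, 2 higher and 2 lower, with the base letters that match a short motif in capitals. The motifs searched on both strands were the GC box (GGGCGG), the CCAAT box (CCAAT) and the TATA box (TATAAA), and overlapping matches were each counted. Sequences run 5′ to 3′ on the gene's strand, from 250 bases before to 50 after the start, and come from RefSeq on build GRCr8. The promoter of Slco4a1 lies on the plus strand at chr3:187936632-187936931, that of Slc23a2 on the minus strand at chr3:139847294-139847593, that of Slc6a9 on the plus strand at chr5:136659826-136660125 and that of Slc2a1 on the plus strand at chr5:138002272-138002571.
Slco4a1: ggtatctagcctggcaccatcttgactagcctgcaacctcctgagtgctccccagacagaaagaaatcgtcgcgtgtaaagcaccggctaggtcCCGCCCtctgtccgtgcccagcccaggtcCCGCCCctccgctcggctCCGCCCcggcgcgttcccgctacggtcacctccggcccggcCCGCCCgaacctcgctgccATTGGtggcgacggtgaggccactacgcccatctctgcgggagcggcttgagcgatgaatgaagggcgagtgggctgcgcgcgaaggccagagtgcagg
Slc23a2: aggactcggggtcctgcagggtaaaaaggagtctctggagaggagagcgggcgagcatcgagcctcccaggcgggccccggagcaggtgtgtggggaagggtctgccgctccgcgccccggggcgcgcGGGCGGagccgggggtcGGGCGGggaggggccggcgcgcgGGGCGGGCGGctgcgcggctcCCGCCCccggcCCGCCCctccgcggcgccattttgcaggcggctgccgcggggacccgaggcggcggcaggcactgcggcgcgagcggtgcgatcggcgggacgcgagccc
Slc6a9: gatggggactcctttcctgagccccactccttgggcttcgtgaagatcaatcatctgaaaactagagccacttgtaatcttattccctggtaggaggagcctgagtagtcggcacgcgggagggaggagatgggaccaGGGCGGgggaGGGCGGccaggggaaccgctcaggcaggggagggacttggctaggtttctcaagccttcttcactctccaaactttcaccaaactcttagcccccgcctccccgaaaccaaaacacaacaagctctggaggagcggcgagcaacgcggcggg
Slc2a1: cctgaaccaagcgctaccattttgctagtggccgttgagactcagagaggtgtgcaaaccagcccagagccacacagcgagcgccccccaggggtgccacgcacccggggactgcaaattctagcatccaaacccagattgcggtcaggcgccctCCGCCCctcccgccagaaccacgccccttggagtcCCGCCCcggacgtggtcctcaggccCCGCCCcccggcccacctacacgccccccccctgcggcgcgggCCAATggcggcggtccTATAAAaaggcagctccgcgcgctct

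Slco4a1 has 4 GC boxes and 1 CCAAT box in that window, Slc23a2 has 6 GC boxes, Slc6a9 has 2, and Slc2a1 has 3 with 1 CCAAT and 1 TATA box. The table held a promoter for 207 of the 253 members. A GC box was in 51.7% of these and in 33.1% of all 33469 promoters, a CCAAT box in 38.2% and 37.5%, and a TATA box in 10.6% and 14.2%. Among promoters of members at least 2-fold higher, 11 of 16 held a GC box, and among those at least 2-fold lower 8 of 15. The median GC content was 65.2% and 59.3% in those groups, 60.3% over the members and 51.7% over all promoters. These shares describe letters in a window and were not tested.

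**Figure D2:**
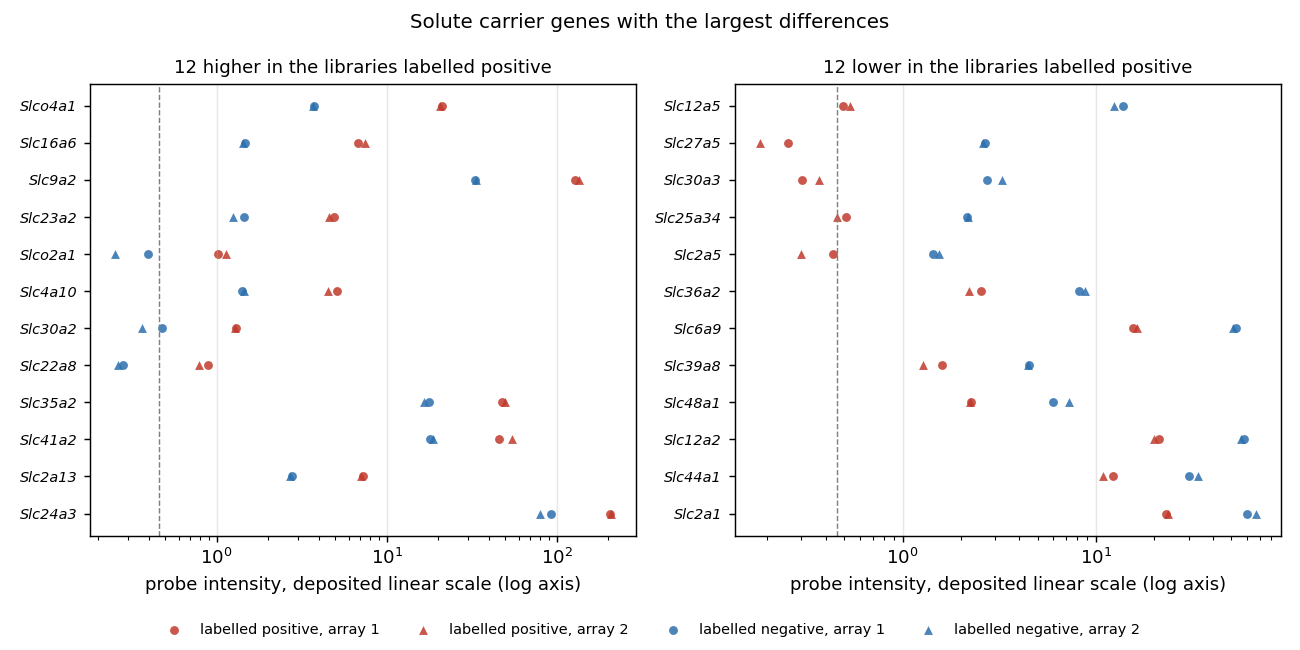
Intensity (log axis) on each of the 4 arrays of the 12 higher and 12 lower solute carrier genes with the largest log2 change; circles and triangles are the 2 arrays of a group and the dashed line is the limit of 0.457. In each of the 24 genes both red points lie on 1 side of both blue points, which the choice of genes required. A group mean lies below the limit in 6 of the genes.

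Among brightest probes that passed the filter on dim probes, the widest difference lay in cation-chloride cotransport. Untested probes of Slc5a11, Slc22a4 and Slc35d1 and a second probe of Slc14a1 had wider gaps. Slc12a5 (late part) encodes KCC2, the neuronal potassium-chloride cotransporter that extrudes chloride, and had 0.493 and 0.536 in the libraries labelled positive and 13.7 and 12.4 in those labelled negative. It was 25.4-fold lower in the former (log2 change -4.67 ± 0.09, SE; limma adjusted p = 1.43e-10), and its 2 low values lie just above the limit. Slc12a2 (late), which encodes NKCC1, the cotransporter that loads cells with chloride, was lower too: it had 21.1 and 19.8 against 58.4 and 55.9, 2.79-fold lower (limma adjusted p = 4.21e-08). Neither gene's groups overlapped. Slc12a7 (late), which encodes the potassium-chloride cotransporter KCC4, was higher instead, with 73.9 and 79.5 against 48.8 and 43.98 (log2 change 0.73).

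Smaller differences in the same family depended on the setting. Slc12a3 (late), the thiazide-sensitive sodium-chloride cotransporter, had 15.4 and 16.9 against 13.2 and 14.1 (log2 change 0.24), and did not pass after quantile (0.07) or cyclic loess normalization (0.06). It also lost its call without the second array labelled positive (0.18) and without the first labelled negative (0.20). Slc12a9 (late), a cotransporter family member of less settled function, had 1.72 and 1.88 against 2.54 and 2.05 (log2 change -0.34), and lost its call without the first array labelled positive (-0.28) or the first labelled negative (-0.19). Of 7 family members read, 6 were tested, with 2 higher and 3 lower. Over all genes 45.6% were higher and 21.4% lower, and 67.1% were called. Slc12a8 (late) did not pass, with 0.825 and 0.5839 against 0.9355 and 0.9582 (log2 change -0.448). Slc12a4, which encodes KCC1, was below the limit in both groups. Slc4a3, the chloride-bicarbonate exchanger AE3, had 4.22 and 4.09 against 4.599 and 4.67 and did not pass (log2 change -0.16), though it passed as lower after quantile (-0.20) and cyclic loess normalization (-0.27).

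Transmitter uptake carriers that passed the test were mostly lower. Of 13 members read from a list of 17 genes of transmitter handling, 7 were tested. Of these 3 were lower, 0 were higher (limma, 0 also at an unadjusted p under 0.05) and 4 did not pass, with a median log2 change of -0.17. Over all genes 21.4% were lower and 45.6% higher, and 67.1% were called against 42.9% of this list. The call of Slc1a3 was lost without 1 array, as given below. Slc6a9 (late) encodes the glycine transporter GlyT1 of glia and some neurons, whose promoter is printed above, and had 15.5 and 16.3 against 52.5 and 51.2. It was 3.26-fold lower in the libraries labelled positive (log2 change -1.71 ± 0.07, SE; limma adjusted p = 1.3e-08). A probe of the early part, whose name was read at its own row, was lower too, with 2.46 and 2.38 against 5.53 and 5.32. Slc6a4 (late), the serotonin transporter, had 6.85 and 6.31 against 12.9 and 14.7, 2.095-fold lower, while its early probe was below the limit on all 4 arrays. At their brightest probes, the groups of both genes lay apart on all arrays.

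Glutamate uptake carriers gave 1 small call. Slc1a3 (late) encodes GLAST, the glial glutamate transporter, and had 121 and 134 against 149.9 and 144, a log2 change of -0.20. That call was lost without the first array labelled positive (-0.13), the first labelled negative (-0.17) or the second labelled negative (-0.23). Slc1a1, the neuronal glutamate transporter EAAC1, had 9.02 and 9.42 against 9.62 and 11.2 and did not pass (log2 change -0.17); it passed as lower after quantile (-0.30) and cyclic loess normalization (-0.34), and without the first array labelled negative (-0.29). Slc1a7 (late), a retinal glutamate transporter, had 0.5103 and 0.602 against 0.633 and 0.445, and its groups overlapped. Both probes of Slc1a2, which encodes the astrocytic glutamate transporter GLT-1, were below the limit in both groups.

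The other carriers of the transmitter list were dim or did not pass. Slc6a2, the noradrenaline transporter, had 0.703 and 0.887 against 0.798 and 0.8403 (log2 change -0.05 ± 0.18, SE), Slc6a5 (late), the glycine transporter GlyT2, 1.19 and 0.935 against 1.24 and 1.09, and Slc18a1, a vesicular monoamine transporter, 1.22 and 1.21 against 1.23 and 1.41. None of these 3 passed. Below the limit in both groups were Slc6a3 (dopamine transporter), Slc18a2 (vesicular monoamine transporter), Slc18a3 (vesicular acetylcholine transporter), Slc5a7 (choline transporter of cholinergic endings) and Slc17a9 (vesicular nucleotide transporter). A level below the limit says that the probe was dim, not that the transcript was absent.

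**Figure D3:**
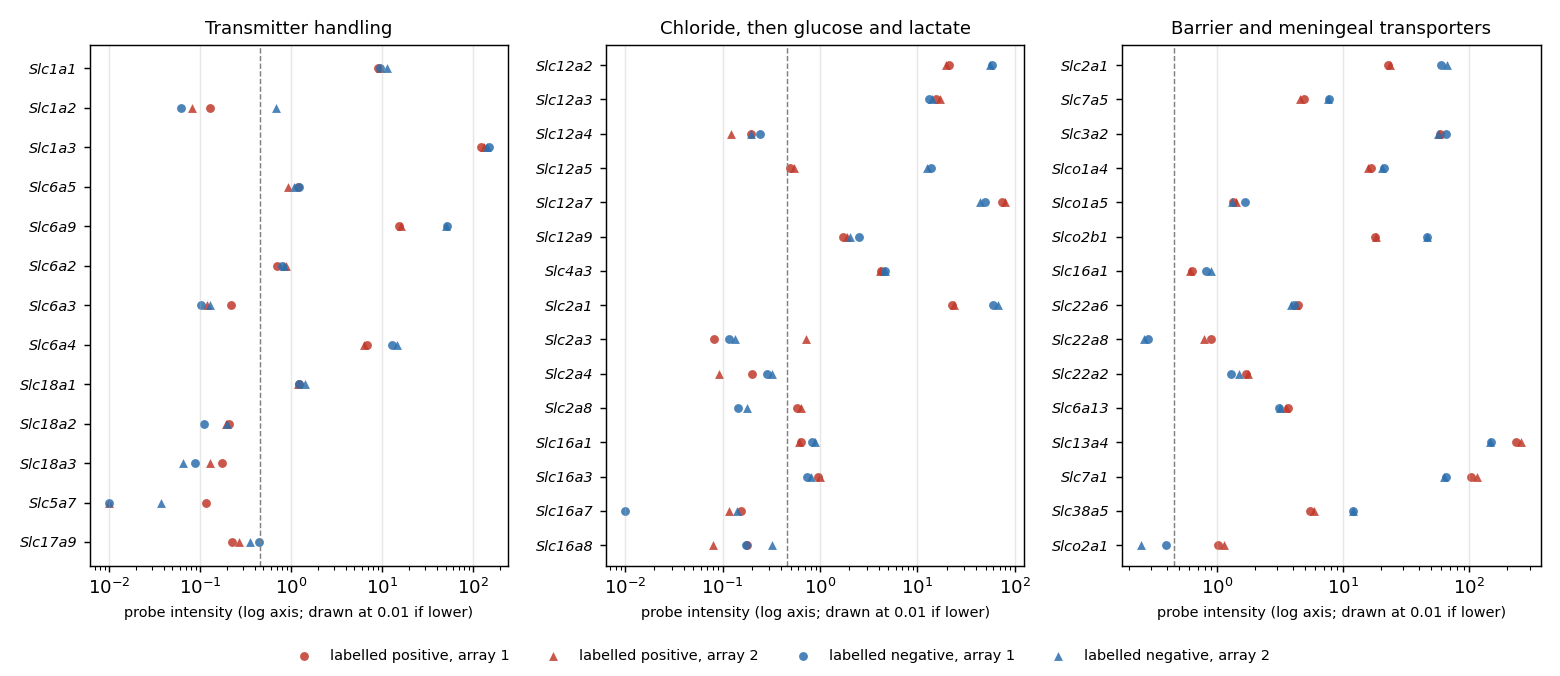
Intensity (log axis) on each of the 4 arrays for the genes of the transmitter, chloride, glucose and lactate, and barrier and meningeal lists; circles and triangles are the 2 arrays of a group, the dashed line is the limit of 0.457, and values at or below 0.01 are drawn at 0.01. Blue points lie to the right of red ones for Slc6a9, Slc12a5, Slc12a2, Slc2a1 and Slco2b1, and red to the right of blue for Slc12a7, Slc7a1, Slc13a4 and Slco2a1.

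Glucose carriers that passed were lower with 1 exception. Slc2a1 (late) encodes GLUT1, the glucose transporter of barrier endothelium and glia, and had 22.8 and 23.5 in the libraries labelled positive and 60.1 and 66.7 in those labelled negative, 2.73-fold lower (log2 change -1.45 ± 0.07, SE; limma adjusted p = 7.26e-08). Beside it, the summed endothelial and mural markers were lower too, at 28.0 and 28.5 against 80.5 and 84.6, and their part in this was not tested. Slc2a5, the fructose transporter GLUT5, had 0.437 and 0.2998 against 1.44 and 1.55, with the libraries labelled positive below the limit. Slc37a4 (late), which carries glucose 6-phosphate into the endoplasmic reticulum, went the other way, with 4.401 and 4.598 against 1.91 and 1.903, 2.36-fold higher. In the class as a whole 11 of 16 members were tested, of which 4 were lower, 1 higher and 6 did not pass, against 21.4% lower and 45.6% higher of all genes.

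GLUT3 and GLUT4, encoded by Slc2a3 and Slc2a4 and known as carriers of neurons and of insulin-responsive tissue, had probes below the limit in both groups. Slc2a8 (late; GLUT8) was not tested, with 0.586 and 0.635 against 0.144 and 0.177. Among the lactate carriers, Slc16a1 (late), which encodes MCT1, had 0.633 and 0.606 against 0.819 and 0.889 (log2 change -0.46, limma adjusted p = 0.0411). That call was lost in every fit without 1 array, with limma adjusted p between 0.0560 and 0.181, and with the replicate number as a block (limma adjusted p = 0.0565), after quantile normalization (0.0531), with no filter on dim probes (0.0893) and with each probe on its own spread (0.0551). Slc16a3 (MCT4) had 0.953 and 1.01 against 0.7404 and 0.816 and did not pass, and Slc16a7 (MCT2) and Slc16a8 (MCT3) were below the limit in both groups.

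Slc16a6 (late), a family member reported to export ketone bodies, had 6.81 and 7.51 against 1.47 and 1.42, 4.95-fold higher in the libraries labelled positive (log2 change 2.31 ± 0.08, SE; limma adjusted p = 6.89e-09). Slc16a13 had 10.5 and 10.6 against 6.74 and 6.84, 1.55-fold higher. Of 7 tested carriers of monocarboxylates and other carboxylates 3 were higher, 1 was lower and 3 did not pass, or 42.9% and 14.3% against 45.6% and 21.4% of all genes. Slc13a5, the citrate transporter, had 0.6403 and 0.655 against 0.825 and 0.758 and did not pass.

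Amino acid carriers went both ways: 8 of 24 tested were higher, 11 lower and 5 did not pass, or 33.3% and 45.8% against 45.6% and 21.4% of all genes, with a median log2 change of -0.195 (6 higher and 12 lower after quantile and after cyclic loess normalization). Slc36a2, a proton-coupled carrier of small amino acids, had 2.54 and 2.19 against 8.14 and 8.802, 3.58-fold lower (log2 change -1.84 ± 0.09, SE; limma adjusted p = 4.88e-08). Slc38a5 (late), a glutamine carrier of glia and barrier cells, had 5.42 and 5.85 against 12.03 and 11.9, 2.13-fold lower. The groups of both lay apart. Slc7a3, which encodes a cationic amino acid carrier, had 2.296 and 2.48 against 5.17 and 5.43, and a second probe was lower too.

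Large neutral amino acids and cystine enter cells through heteromers of a light chain with the heavy chain encoded by Slc3a2. The light chain Slc7a5 (LAT1) had 4.88 and 4.53 against 7.78 and 7.62 and Slc7a11, the cystine-glutamate exchanger of glia, 28.5 and 24.4 against 47.1 and 50.05. Both light chains were lower, 1.64-fold and 1.84-fold. Slc3a2 itself had 58.97 and 57.5 against 65.5 and 56.9 with overlapping groups (log2 change -0.07), though it passed as lower after quantile (-0.35) and cyclic loess normalization (-0.31). Another light chain, Slc7a6 (late; y+LAT2), was higher, with 7.697 and 8.17 against 3.72 and 4.04.

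Among the amino acid carriers that were higher, Slc7a1 (late), the arginine and lysine carrier CAT1, had 104 and 115 against 65.8 and 63.2, 1.697-fold higher. The glutamine and alanine carriers Slc38a1 and Slc38a2 (both late), which feed transmitter synthesis in neurons, had 44.8 and 44.5 against 32.9 and 29.2 and 28.5 and 27.2 against 13.9 and 13.5. Both had groups apart, with log2 changes of 0.53 and 1.02. Slc66a1, a lysosomal carrier of cationic amino acids, had 18.1 and 18.96 against 11.1 and 11.8, and both its tested probes were higher.

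A list of 8 carriers typical of glia was read from 12 genes, and of 6 tested 3 were lower (Slc1a3, Slc7a11 and Slc27a1), 0 higher (limma; 0 also at an unadjusted p under 0.05) and 3 did not pass, with a median log2 change of -0.25. Over all genes 21.4% were lower and 45.6% higher, and the call of Slc1a3 was lost without 1 array, as above. Slc27a1 (late), a fatty acid carrier, had 27.4 and 31.1 against 44.8 and 38.8 (log2 change -0.51), and its second tested probe was lower too. Slc15a2, the peptide carrier PEPT2, had 4.13 and 4.77 against 4.37 and 4.38 with overlapping groups. Slc14a1 (late), the urea transporter UT-B of astrocytes and red cells, had 2.603 and 2.46 against 2.94 and 2.49 at its brightest probe and did not pass, while its other tested probe, singled out after its values were seen, had 0.0901 and 0.0942 against 6.96 and 6.50. Of the astrocyte markers, the widest gaps were those of Aqp4, with 0.344 and 0.603 against 48.4 and 51.7, and Gfap, with 1.10 and 0.991 against 42.8 and 46.2. Aldoc (late) was 1.52-fold lower, and S100b was lower too. Slc4a4 (late) went the other way, with 15.11 and 14.99 against 9.481 and 8.605, and Gja1 (late) did not pass. A link of these markers with the glial carriers was not tested. Slco1c1, a thyroid hormone carrier of barrier cells and astrocytes, was below the limit in both groups.

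Of the organic ion and bile acid carriers 9 of 19 tested were higher, 4 lower and 6 did not pass, shares close to the 45.6% higher and 21.4% lower of all genes (median log2 change 0.31). Slco4a1, an organic anion carrier that takes up thyroid hormone and prostaglandins, had 21.3 and 20.5 in the libraries labelled positive and 3.72 and 3.69 in those labelled negative, and was 5.64-fold higher (log2 change 2.50 ± 0.07, SE; limma adjusted p = 9.72e-10). A second, dimmer probe of Slco4a1 did not pass, with 1.04 and 0.811 against 0.761 and 0.983. Slco2a1 (late), the prostaglandin transporter, had 1.02 and 1.14 against 0.392 and 0.251, with the libraries labelled negative below the limit. Slc22a8, which encodes the organic anion transporter OAT3 of kidney, choroid plexus and meninges, had 0.891 and 0.786 against 0.282 and 0.263, again with the second group below the limit.

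In the opposite direction, Slco2b1, an organic anion carrier of endothelium and other cells, had 17.8 and 18.1 against 45.98 and 46.4, 2.57-fold lower (log2 change -1.36 ± 0.07, SE; limma adjusted p = 4.79e-08). Slco1a4 (late), a carrier of brain endothelium, had 16.7 and 15.9 against 21.2 and 20.5, 1.28-fold lower. The groups of both were apart. Slco1a5 (late) had 1.34 and 1.42 against 1.65 and 1.32, and Slc22a6, which encodes OAT1, 4.39 and 4.24 against 4.11 and 3.89; neither passed. Slc22a2, an organic cation carrier, had 1.69 and 1.77 against 1.28 and 1.502 (log2 change 0.32) and lost its call without the second array labelled positive (0.28) or the first labelled negative (0.20). Slc22a3, the extraneuronal monoamine carrier, was 2.17-fold higher, with 9.07 and 7.84 against 3.69 and 4.09.

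A list of 20 carriers of barrier endothelium and meninges gave 15 members read and tested, of which 6 were higher, 6 lower and 3 did not pass, against 45.6% higher and 21.4% lower of all genes, with a median log2 change of -0.07. The higher ones were Slc22a8, Slco2a1, Slc22a2, Slc13a4, Slc7a1 and Slc6a13. The lower ones were Slc2a1, Slco2b1, Slc38a5, Slc7a5, Slco1a4 and Slc16a1. Slc13a4 (late), a sulfate carrier, had 234 and 259 against 148 and 145 (log2 change 0.75), but a second probe was called lower and the mean of the tested probes did not pass. Slc6a13, the GABA transporter GAT2, had 3.67 and 3.55 against 3.100 and 3.15 (log2 change 0.21), and did not pass after quantile (0.17) or cyclic loess normalization (0.12), nor without the first array labelled positive (0.18) or either labelled negative (0.20 and 0.22). The sums of the meningeal and endothelial markers are given above, and their part in these differences was not tested.

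Acid-base carriers included 2 of the 12 genes with the largest higher values. Slc9a2 (late) encodes the sodium-proton exchanger NHE2 and had 128 and 135 against 33.2 and 33.8, 3.92-fold higher (log2 change 1.97 ± 0.07, SE; limma adjusted p = 6.63e-09). A probe of Slc9a2 in the early part was higher too, with 2.05 and 2.16 against 1.15 and 1.17. Slc4a10, a sodium-coupled bicarbonate carrier of neurons and choroid plexus, had 5.14 and 4.52 against 1.41 and 1.44, 3.38-fold higher, while its other tested probe did not pass. Slc9a3, which encodes the sodium-proton exchanger NHE3 of epithelia, was 2.73-fold lower, with 1.603 and 1.42 against 4.197 and 4.06. Of 10 tested members 5 were higher, 2 lower and 3 did not pass, near the 45.6% and 21.4% of all genes.

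Calcium leaves neurons in part through sodium-calcium exchangers and, with potassium, through the Slc24 exchangers. Slc24a3 (late, NCKX3) had 206 and 208 against 92.7 and 79.8. It was 2.41-fold higher (log2 change 1.27 ± 0.08, SE, limma adjusted p = 4.57e-07). Its other tested probe was also higher, with the libraries labelled negative below the limit there. Slc24a2 (NCKX2) had 2.21 and 1.76 against 0.878 and 1.15, 1.96-fold higher. Slc8a1 (late; NCX1) was lower, with 7.76 and 7.68 against 13.1 and 12.3, and so was Slc24a4 (late; NCKX4), with 0.852 and 0.841 against 1.199 and 1.24. The groups were apart for these 4 genes, and Slc24a1 (NCKX1) did not pass at its brightest probe, with 5.02 and 4.71 against 5.29 and 4.94, while another probe was called higher (log2 change 0.42).

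Metal carriers gave 8 higher, 6 lower and 9 not passing among 23 tested, or 34.8% and 26.1% against 45.6% and 21.4% of all genes, with a median log2 change of 0.08. Zinc carriers of vesicles differed in both directions: Slc30a3 encodes ZnT3, which fills synaptic vesicles with zinc, and had 0.301 and 0.369 against 2.74 and 3.27, with the libraries labelled positive below the limit. Slc30a2 (late; ZnT2) showed the reverse, 1.300 and 1.29 against 0.479 and 0.366, with those labelled negative below it. Slc39a8, which encodes the zinc and manganese importer ZIP8, had 1.59 and 1.28 against 4.48 and 4.42, 3.12-fold lower (log2 change -1.64 ± 0.11, SE; limma adjusted p = 3.93e-07).

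The carriers of heme and of iron export were lower and a magnesium carrier higher. Slc48a1, the heme transporter HRG1 of endosomes, had 2.25 and 2.23 against 5.99 and 7.23, 2.93-fold lower at its brightest probe, with another tested probe not passing. Slc40a1, the iron exporter ferroportin, had 3.28 and 2.996 against 4.23 and 4.25 (log2 change -0.44), and both its tested probes were lower. At the dimmer probe the libraries labelled positive were below the limit. Slc11a2, the iron importer DMT1, was called higher by its brightest probe (14.6 and 15.6 against 9.43 and 9.198) and lower by another. Slc41a2, a magnesium carrier, had 45.9 and 55.03 against 18.1 and 18.7, 2.73-fold higher, with another tested probe not passing.

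Vitamin carriers that passed were higher and choline carriers lower. Slc23a2, whose promoter is printed above, encodes SVCT2, which takes up vitamin C into neurons, and had 4.92 and 4.57 against 1.45 and 1.26, 3.52-fold higher (log2 change 1.81 ± 0.10, SE; limma adjusted p = 8.82e-08). Another probe of Slc23a2 was not tested and was below the limit in both groups, with 0.0864 and 0.0823 against 0.2873 and 0.2195. Slc5a6, the carrier of biotin and pantothenate, had 325 and 322 against 147 and 142, 2.25-fold higher, and Slc19a1, the reduced folate carrier, 30.02 and 30.04 against 19.8 and 20.6. Slc44a1 (late), the choline carrier CTL1, had 12.1 and 10.8 against 30.1 and 33.7, 2.78-fold lower. Of its other tested probes 1 was lower, with the libraries labelled positive below the limit, and 1 did not pass. Slc44a2 (late) had 23.5 and 21.8 against 26.4 and 25.5. Of the 9 tested members of this class 4 were higher and 2 lower, or 44.4% and 22.2% against 45.6% and 21.4% of all genes. The other 3 did not pass, among them the thiamine carrier Slc19a2 (1.04 and 1.07 against 1.03 and 1.06).

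Fatty acid and acetyl-CoA carriers were few. Slc27a5 (late), a bile acid and fatty acid CoA ligase, had 0.255 and 0.182 against 2.65 and 2.604, with the libraries labelled positive below the limit. Slc33a1 (late), which brings acetyl-CoA into the endoplasmic reticulum, had 14.2 and 14.7 against 7.67 and 7.15, 1.96-fold higher. Its other tested probe, of the early part, went the other way and did not pass, with 1.02 and 0.894 against 1.28 and 1.15 (log2 change -0.35). Of 5 tested, 1 was higher, 2 lower and 2 did not pass. Over all genes 45.6% were higher and 21.4% lower, and 67.1% were called.

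Mitochondrial carriers held 12 higher, 5 lower and 6 not passing among 23 tested, or 52.2% higher and 21.7% lower against 45.6% and 21.4% of all genes. Their median log2 change was 0.21, against 0.17 over all genes by their brightest probe. The counts became 8 and 6 after quantile and 7 and 6 after cyclic loess normalization, so the number of higher calls went with the scaling. Slc25a27 (late), which encodes the uncoupling protein UCP4 of neurons, had 5.39 and 5.33 against 2.79 and 2.75, 1.94-fold higher (log2 change 0.95 ± 0.07, SE; limma adjusted p = 1.15e-06). Slc25a34 (late) was the widest of the class, with 0.5102 and 0.458 against 2.15 and 2.17, 4.46-fold lower, its low values again close to the limit. Of 3 members chosen after their values were seen, Slc25a5 (late), an ADP and ATP exchanger, had 267 and 299 against 229 and 226, Slc25a3, the phosphate carrier, 12.1 and 11.7 against 10.2 and 9.84, and Slc25a1, the citrate carrier, 18.6 and 18.6 against 13.7 and 12.7. All 3 passed as higher, with log2 changes of 0.31, 0.25 and 0.50. Slc25a46, a mitochondrial outer membrane protein tied to fission and to hereditary neuropathy, had 228 and 224 against 148 and 163.

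Nucleoside and nucleotide sugar carriers, which supply the Golgi apparatus with sugar donors, were higher for 8 of 17 tested, lower for 3 and not passing for 6, close to the 45.6% higher and 21.4% lower of all genes (4, 3 and 10 after cyclic loess normalization). Slc35a2 (late), the UDP-galactose carrier, had 47.7 and 49.9 against 17.9 and 16.7, 2.83-fold higher at its brightest probe, while another probe was called lower. Slc35a1, the CMP-sialic acid carrier, had 9.97 and 9.79 against 5.83 and 5.48, and both tested probes were higher. At the dimmer probe the mean of the libraries labelled negative was below the limit. Slc29a3, the lysosomal nucleoside carrier ENT3, had 8.21 and 8.24 against 15.2 and 16.8, 1.94-fold lower, with all 3 tested probes lower.

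Osmolyte, phosphate and peptide carriers completed the set. Slc2a13, a proton-coupled carrier of myo-inositol, had 7.25 and 7.09 against 2.78 and 2.69, 2.62-fold higher (limma adjusted p = 7.41e-08), with another tested probe not passing. The other inositol carrier read, Slc5a11 (late), was not tested at its brightest probe, where it had 0.1397 and 0.0166 against 4.16 and 3.65, the libraries labelled positive below the limit. Slc6a6, the taurine carrier, and Slc6a8 (late), the creatine carrier, had 0.607 and 0.521 against 0.715 and 0.835 and 12.7 and 13.9 against 14.6 and 15.2, and neither passed. Slc17a5 (late), the lysosomal sialic acid carrier, was higher by its brightest probe (18.5 and 19.1 against 13.3 and 12.1) and lower by another. At that other probe the libraries labelled positive were below the limit. The mean over the tested probes of Slc17a5 had a log2 change of -0.30. Slc15a4, a peptide and histidine carrier of lysosomes, had 4.52 and 4.13 against 5.51 and 5.25. Slc15a1 (late), the intestinal peptide carrier, had 0.6402 and 0.721 against 0.478 and 0.363. Its mean in the libraries labelled negative was below the limit. The call of Slc15a1 was lost without the second array labelled positive (0.62) or the second labelled negative (0.51). Slc66a3 (late), with no substrate assigned, had 5.78 and 5.13 against 3.81 and 3.88, and Slc7a6os, which carries the symbol of its neighbour but encodes no transporter, 9.09 and 9.37 against 7.47 and 7.51; both were higher, the second not after cyclic loess normalization.

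Among the 14 untested members with 1 group above the limit, a few had wide gaps; those given here were chosen after their values were seen. Slc22a4, a carrier of ergothioneine, had 0.004000 and 0.217 against 2.31 and 2.45. Slc34a1, the renal sodium-phosphate cotransporter, had 1.22 and 1.296 against 0.0624 and 0.0728, and Slc35d1, a nucleotide sugar carrier of the endoplasmic reticulum, 1.12 and 1.02 against 0.0289 and -0.0282. In each, both arrays of 1 group were above the limit and both of the other below it.

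Probes of the same gene bear on these values. Of 35 genes with at least 2 tested probes, 12 had all of them called in 1 direction, 17 had some called in 1 direction and others not passing, 1 had none called, and 5 were called higher by one probe and lower by another: Slc11a2, Slc13a4, Slc17a5, Slc35a2 and Slc39a13. Of 38 pairs of a brightest with another probe, 25 had the same sign. Those with all probes in 1 direction were Slc6a9, Slc9a2, Slc24a3, Slc29a3, Slc27a1, Slc7a3, Slc38a1, Slc35a1, Slc66a1, Slc40a1, Slc30a9 and Slc22a21. Among them, a dimmer probe of Slc24a3, Slc35a1 and Slc40a1 had 1 group below the limit. The same held for the lower probe of Slc17a5. Such probes passed the filter on dim probes through their brighter group, so their calls add little. Why probes of 1 gene differ was not tested.

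**Figure D4:**
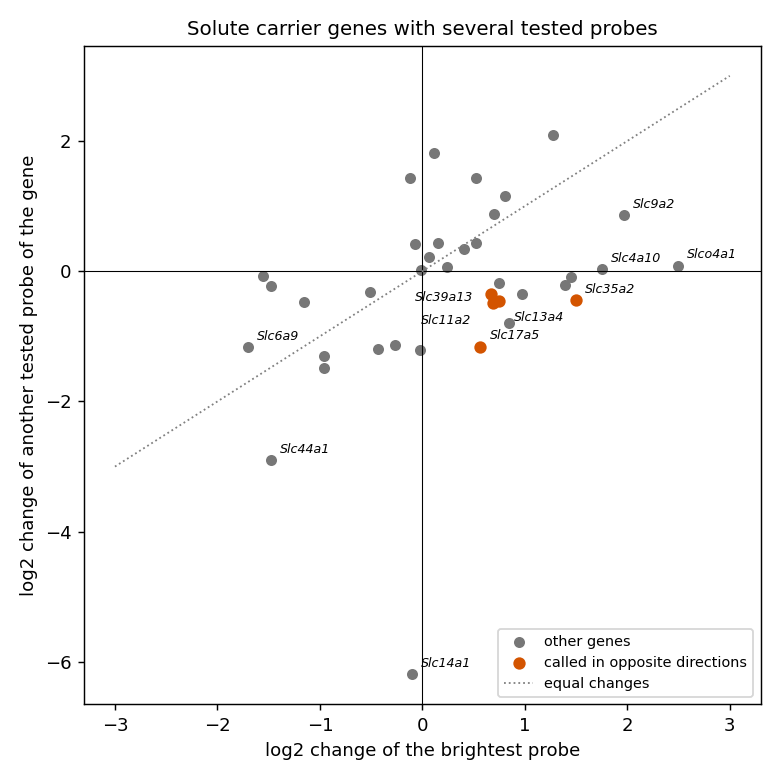
Log2 change of the brightest probe (x axis) and of another tested probe of the same gene (y axis) for 38 pairs from 35 solute carrier genes; orange points are the 5 genes whose probes were called in opposite directions and the dotted line marks equal changes. Slc9a2 and Slc6a9 lie in the quadrants of equal sign, Slco4a1 and Slc4a10 have a second probe near 0, and Slc14a1 stands at -6.19 on the y axis.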

How the data were processed

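The authors deposited a processed table of linear intensity values with nearly equal array medians. For scanning, background correction and normalization no method was given in the sources used here, and centring by gene is unknown. The code for missing values was left missing (10 to 39 entries per array). Values of zero or less (532 to 776 per array) were raised to percentile 1 of that array's positive values, then log2 was taken. Probes with a mean log2 below the 40th percentile (intensity 0.457) were left out, leaving 21069 of 35126. Names came from GEO's platform annotation and were read at their own row in the early part and 5 table rows later in the late part; all 253 gene IDs were found in the RefSeq table with the same symbol. Accessions and coordinates of the probes are not used here.

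Tests were two-sided and run in limma (version 3.58.1, under R 4.3.3) with a variance trend; p-values were adjusted by Benjamini-Hochberg over the 21069 probes and called under 0.05. The fit was tested on simulated data. The titles share replicate numbers, but samples with the same number did not deviate together (r = -0.0024), so the main fit did not pair the arrays. Whether arrays of the same number share a source is not stated, and this correlation cannot decide it. Figures were drawn with matplotlib 3.10.9.

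A gene was represented by its brightest probe. Substrate classes and lists were written by hand. The members and the lists were chosen with earlier results of these data known. The rule for named genes took the 12 higher and 12 lower members with the largest log2 change among those called with groups that did not overlap, the 2 called members with the smallest p of each class, and every measured member of the 5 solute carrier lists; other members named were chosen after their values were seen, and Slc46a1 was moved to the vitamin class then. Marker lists of Schwann and satellite glia (2 of 5 tested lower, 1 higher), blood and immune cells (4 of 6 lower, 2 higher), neurons (3 of 5 higher, 1 lower) and hair cells (1 of 2 lower) were also read. Alternatives were other normalizations, filters, low and missing values, variance priors, the replicate number as a block, leaving out each array, other pairings of names with values, and means over probes.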

Additional observations from a re-analysis of the deposited data

How the results depend on the processing

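The 147 solute carrier probes called became 83 with each probe tested on its own spread and 71 with names of the early part only, and the 120 members called became 69 and 64. The 49 probes called with at least a 2-fold difference became 30 with the dimmest 60% of probes left out and 24 with early names only; fewer probes are tested or named in these fits. Leaving out each array in turn gave 127 to 136 probes, 49 to 53 with at least a 2-fold difference, and 103 to 109 members. The replicate block gave 148 probes, 49 and 119 members, and among named genes it changed the call of Slc16a1 only. Of 1022 values of 63 named genes over 17 settings, 24 changed sign with a call in the main fit, in the setting or in both. Another 51 lost and 10 gained a call with the sign kept. The other 937 kept their side of the threshold. Sign changes with no call in either fit are counted among these 937 and were not listed.

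Of the 24 sign changes, 20 came with the late names left at their own rows, which pairs those names with other values: log2 changes were 0.19 for Slc12a2, 0.87 for Slc12a5, -0.44 for Slc13a4, 1.59 for Slc14a1, -0.43 for Slc15a1, 0.69 for Slc16a1, -1.16 for Slc17a5 (from its early probe), 0.72 for Slc1a3, -0.0015 for Slc25a27, 0.41 for Slc25a34, 0.24 for Slc27a1, 0.98 for Slc27a5, -0.82 for Slc33a1, -0.22 for Slc37a4, 1.51 for Slc44a1, -0.0797 for Slc66a3, 1.04 for Slc6a2, 0.47 for Slc6a4, 0.0619 for Slc6a9 and -0.29 for Slco2a1. With early names only, Slc13a4 had -0.46, Slc17a5 -1.16 and Slc33a1 -0.35, each from another probe of the gene, and the mean over probes gave -0.30 for Slc17a5. Precision is limited by having 2 arrays a group, and signal near the limit of 0.457 says little of size.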
